A study of Mus musculus with 17 samples.

Results

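The EGF receptor family, its adaptors and its inhibitors were followed in mouse antral ovarian follicles as a set of 10 genes chosen by symbol: the receptors Egfr, Erbb2 and Erbb3, the adaptors Shc1, Grb2 and Gab1 with the exchange factor Sos1, and the inhibitors Errfi1, Lrig1 and Cbl. All 10 were among the 25198 genes of the count table, and 9 of them passed the filter on low counts and were tested. Erbb3 did not. Follicles came from CD1 mice 16 days old and had grown for 8 days in eIVFG, an encapsulated culture of whole follicles in which oocyte, granulosa cells and surrounding cells stay together, so the counts are those of a mixture of cells. Each sample pooled 3 follicles, and its RNA was made into a Smart-Seq2 library. The 11 Control libraries and 6 Tyrphostin libraries come from 2 batches named in the labels: batch 1 has 6 Control samples beside 3 Tyrphostin samples, and batch 2 has 5 beside 3. Tyrphostin follicles were given 10 µM AG1478, an inhibitor of the kinase of Egfr, in DMSO together with hCG, the gonadotropin that stands in for the ovulatory LH surge, for 4 h. The labels carry that treatment text for Control samples as well, so they leave unstated whether Control follicles received hCG and DMSO. Controls fall into 5 sets by library name, and nothing states whether samples of a set shared animals or cultures. P-values therefore measure the spread between libraries, part of which may be technical.

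Receptors of this family are kinases of the cell surface. On binding an EGF-like ligand they pair and phosphorylate each other's tails, and Shc1, Grb2 and Gab1 assemble on those tails and bring in Sos1, which loads Ras with GTP and so starts the ERK cascade. Signalling is held down by Errfi1, a cytoplasmic protein that binds the kinase domain and blocks it, by Lrig1, a membrane protein that lowers receptor amount, and by Cbl, a ligase that attaches ubiquitin to active receptors and sends them for degradation. Errfi1 is itself switched on by the pathway it inhibits. In the ovary, the LH surge makes mural granulosa cells release EGF-like ligands, which act through Egfr on granulosa and cumulus cells and pass the ovulatory signal towards the oocyte.

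Errfi1 was the member whose level differed most, so its promoters are shown, with that of Egfr, the target of the inhibitor, for comparison. Each window holds the 250 bases before a start listed by RefSeq on GRCm38.p6, and the capitals mark a CRE, the binding motif of CREB-type factors, and a TATA box.
Errfi1 upstream start, chr4:150853546-150853795, plus strand: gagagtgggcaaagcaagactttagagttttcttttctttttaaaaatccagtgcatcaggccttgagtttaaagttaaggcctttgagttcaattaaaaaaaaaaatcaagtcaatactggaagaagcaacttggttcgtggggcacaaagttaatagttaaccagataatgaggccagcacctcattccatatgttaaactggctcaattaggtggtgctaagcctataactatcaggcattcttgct
Errfi1 downstream start, chr4:150854820-150855069, plus strand: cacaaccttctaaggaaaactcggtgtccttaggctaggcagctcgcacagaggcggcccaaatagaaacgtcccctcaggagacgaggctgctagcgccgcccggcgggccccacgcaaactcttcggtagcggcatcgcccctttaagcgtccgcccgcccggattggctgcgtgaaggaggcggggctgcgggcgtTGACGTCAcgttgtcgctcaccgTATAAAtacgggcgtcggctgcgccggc
Egfr, chr11:16751953-16752202, plus strand: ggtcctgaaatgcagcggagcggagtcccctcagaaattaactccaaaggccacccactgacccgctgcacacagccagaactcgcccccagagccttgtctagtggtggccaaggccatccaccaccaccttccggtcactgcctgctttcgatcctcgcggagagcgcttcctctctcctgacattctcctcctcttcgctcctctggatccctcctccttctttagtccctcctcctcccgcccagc
RefSeq gave 13 such windows for 9 members. On both strands they were searched for the CRE (TGACGTCA), AP-1 (TGANTCA), the CArG box by its usual letters, the TATA box (TATAAA) and the GC box (GGGCGG). None of these motifs overlaps another of them in these windows, though neighbouring GC boxes can overlap. The window of the downstream Errfi1 start, with 64.8% G and C, held a CRE beginning 51 bases before the start, a TATA box beginning 28 bases before it, and 3 GC boxes. The window of the upstream Errfi1 start, with 38.0% G and C, held none of these motifs. The CRE was found in 1 of the 13 windows of members and in 508 of 32851 windows of all genes (1.55%). A TATA box was in 2 windows of members (12.4% of all windows), AP-1 in 1, that of a Shc1 start (6.75% of all), a GC box in 7 (32.7% of all) and the CArG box in none (1.47% of all). The windows of the Gab1 starts overlap and hold the same GC boxes, so those 7 are not all separate. The Egfr window held a GC box beginning 9 bases before the start. Counts per gene do not tell which Errfi1 start was used.

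Depth was lowest in Control 6, at 1820545 counts, and highest in Control 8, at 8291024 counts. Levels are given as CPM, counts scaled by TMM to a common library total, and fold changes as log2 of Tyrphostin over Control with their standard error (SE). A gene was called when its Benjamini-Hochberg adjusted p over the 9603 genes tested was under 0.05 by the quasi-likelihood test of edgeR, with batch as a term. Of those genes 10.6% were called, 4.35% higher and 6.25% lower in Tyrphostin libraries. The 9 granulosa markers summed to between 52510 and 81210 CPM in every library, and all 9 had counts. The sum does not stand for a steady set: of the 6 granulosa markers tested 4 were called higher in treated libraries (Cyp19a1 2.35 ± 0.22, Gata4 2.32 ± 0.48, Nr5a2 2.18 ± 0.16 and Fshr 0.83 ± 0.25, log2 ± SE). The other 2 tested had negative fold changes and were not called, and the median over the 6 was 1.51. The part of these markers in the results below was not tested. Summed CPM of 12 theca and stroma markers was 3098 in Tyrphostin 5, 2172 in Control 7 and 2035 in Control 8, against 276 to 1209 elsewhere. The 12 oocyte markers summed to only 27.8 to 194 CPM in Control libraries and 32.6 to 290.6 CPM in Tyrphostin libraries. How much oocyte RNA the counts hold was not tested. A value lower in a library of whole follicles can reflect fewer cells of a type or less RNA per cell, which these data cannot tell apart.

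The members were split. Errfi1 fell about 6-fold in treated follicles, Egfr was lower by an amount that did not pass the test over all libraries, and none of the other 7 members tested was called. Thus 1 of 9 members tested was called, beside 10.6% of all genes. A negative log2 fold change was fitted for 8 of the 9 and a positive one for Grb2. The median over the 9 was -0.21, against a median close to 0 over all genes, and with total counts in place of TMM it was -0.07 against 0.145.

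**Figure D1:**
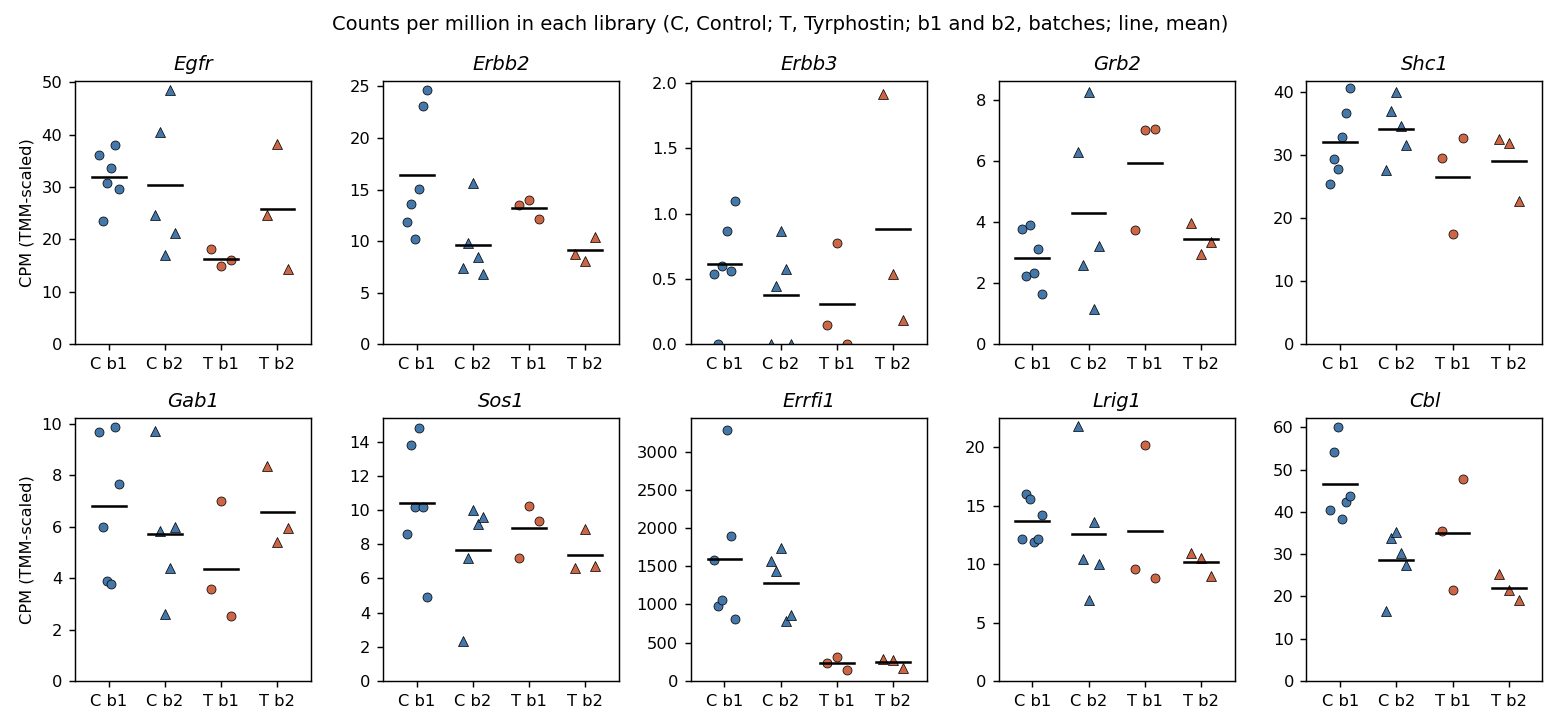
CPM of each of the 10 members in every library, on an axis from 0, with Control (C) and Tyrphostin (T) libraries split by batch (b1, b2) and a line at each mean. The Errfi1 panel shows all Tyrphostin libraries below all Control libraries, and the other panels show groups that overlap over the 2 batches.

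Errfi1, on chromosome 4 at 150853919 to 150868892 of the plus strand (ENSMUSG00000028967.10), encodes the inhibitor that binds the receptor's kinase domain. Its lowest, median and highest CPM were 788.6, 1437 and 3285 in Control libraries and 148.7, 254.4 and 311.1 in Tyrphostin libraries. The ranges did not overlap: the lowest Control library, Control 10, stood 2.54 times above the highest treated library, Tyrphostin 2. Only 96 of the 9603 genes (1.00%) lay lower in every treated library than in every Control library, and 49 (0.510%) higher. Control libraries averaged 1453 CPM ± 724 (SD, n = 11) and treated libraries 238 CPM ± 65 (SD, n = 6). Errfi1 had a log2 fold change of -2.59 ± 0.31 (SE, 95% interval -3.23 to -1.95; edgeR adjusted p = 7.31e-06), a 6.02-fold lower level and place 28 among all genes by p.

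Within batch 1 the Tyrphostin libraries held 231, 311 and 149 CPM of Errfi1, and the 6 Control libraries 809 to 3285 CPM. In batch 2 the treated libraries held 284, 278 and 174 CPM, and the 5 Control libraries 789 to 1736 CPM. Thus the groups were apart in each batch, with log2 fold changes of -2.79 ± 0.45 (SE; edgeR adjusted p = 0.00152) in batch 1 and -2.38 ± 0.36 (SE; edgeR adjusted p = 0.0127) in batch 2. These calls stand beside 6.73% of genes called in batch 1 and 0.621% in batch 2. How many of all genes lay apart within a batch was not counted. Leaving out Tyrphostin 4, 5 or 6 ended the batch 2 call, with edgeR adjusted p of 0.0602, 0.0896 and 0.119 and log2 fold changes of -2.50, -2.48 and -2.18. The effect in batch 2 minus that in batch 1 was 0.41 ± 0.55 (SE; unadjusted edgeR p = 0.457), and no gene was called for this difference among 9603 tested (0 of them by DESeq2 also, 79 by edgeR with no filter on low counts, and 342 at an unadjusted p under 0.05).

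Control libraries themselves spread widely in Errfi1. Those of the second set by name, Control 4, 5 and 6, held 3285, 1889 and 809 CPM and so covered nearly the whole Control range. Control 10 and Control 11, the last set, held 789 and 863 CPM. The 6 treated libraries lay closer together, from 149 to 311 CPM. The call was kept in each of the 17 omissions of a library, with log2 fold changes between -2.67 and -2.42 and edgeR adjusted p of at most 5.96e-05.

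Among 6333 genes with an average log2 CPM of at least 3, the pattern most like that of Errfi1 over the 17 libraries was that of Dusp6, a phosphatase that switches off ERK, with a Pearson r of log2 CPM of 0.98. Stx6, a protein of membrane fusion in the trans-Golgi and endosomes, followed with r = 0.95, then Itga5, a subunit of the fibronectin receptor, with r = 0.94, Sdc1, a heparan sulfate proteoglycan of the cell surface, with r = 0.93, and Pcyt1a, an enzyme of phosphatidylcholine synthesis, also with r = 0.93. All points share the treatment split, so r was also computed on deviations from the means of the groups by batch. It was then 0.86 for Dusp6, 0.82 for Stx6, 0.81 for Itga5, 0.48 for Sdc1 and 0.62 for Pcyt1a. Dusp6 held 382 to 814 CPM in Control and 72.8 to 190 CPM in Tyrphostin libraries, and the library highest in it, Control 4, was also highest in Errfi1. These correlations describe 17 libraries that share batches and scaling, and were not tested.

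**Figure D2:**
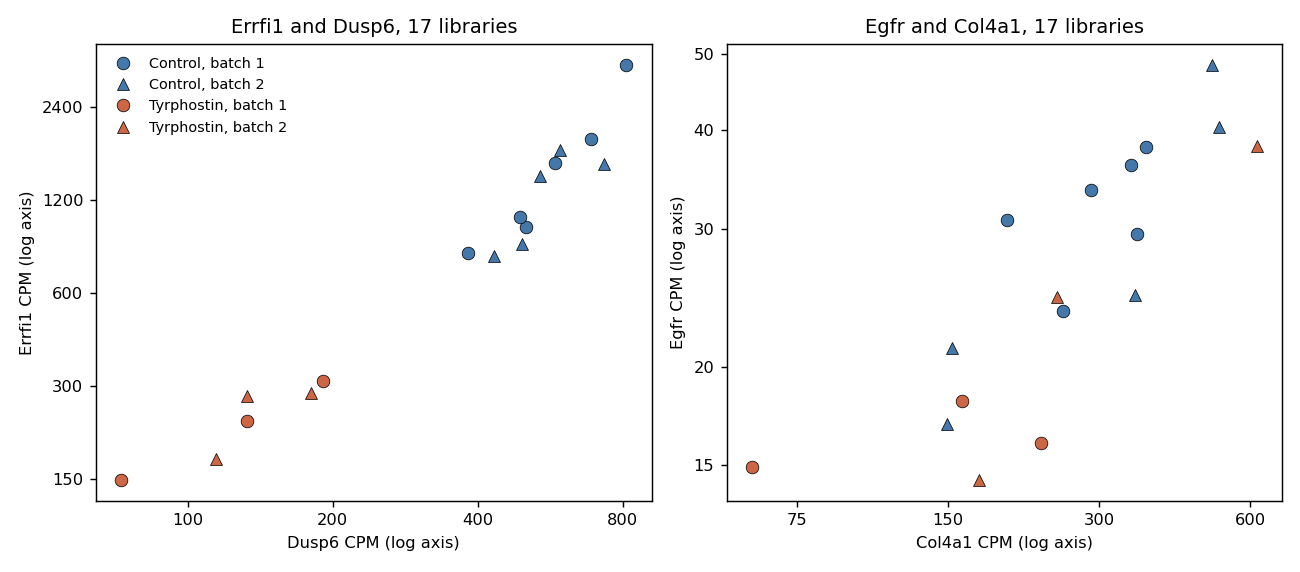
Errfi1 against Dusp6 (left) and Egfr against Col4a1 (right) in CPM on log axes, a point per library, coloured by group and shaped by batch. Errfi1 and Dusp6 separate the groups together (r = 0.98), whereas Egfr and Col4a1 run together across both groups (r = 0.83), with Tyrphostin 5 high in both.

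Lrig1, the membrane protein that lowers receptor amount (chromosome 6, 94604529 to 94700158, minus strand), ran from 6.95 CPM (Control 9) through a median of 12.1 to 21.8 CPM (Control 7) in Control libraries and from 8.78 through 10.1 to 20.2 CPM in Tyrphostin libraries. The highest treated value belonged to Tyrphostin 2 alone, with the other 5 between 8.78 and 10.97 CPM. The log2 fold change was -0.19 ± 0.22 (SE; edgeR adjusted p = 0.661), and without Tyrphostin 2 it was -0.43 (edgeR adjusted p = 0.284). No change of Lrig1 was shown, and the interval of -0.65 to 0.27 bounds it. Of its exonic bases 2.58% overlap Slc25a26 on the other strand, and the use of strand in counting is not given in the sources used here.

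Cbl, the ubiquitin ligase (chromosome 9, 44142976 to 44234049, minus strand), held 16.5 (Control 7), 38.3 and 60.1 CPM (Control 3) as lowest, median and highest of Control libraries, and 19.0, 23.4 and 47.8 CPM in Tyrphostin libraries. Of the treated libraries 5 of 6 lay below the Control median, but none below the lowest Control library. Set against Control libraries of their own batch, 2 of 3 treated libraries lay below all of them in batch 1 and none in batch 2. The log2 fold change of -0.40 ± 0.18 (SE; 95% interval -0.78 to -0.02) had an unadjusted edgeR p of 0.0392 and an adjusted p of 0.183. It was -0.40 ± 0.26 (SE) within batch 1 and -0.38 ± 0.27 (SE) within batch 2, neither of which was called.

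Egfr, the receptor whose kinase AG1478 inhibits (chromosome 11, 16752203 to 16918158, plus strand), held 16.9 (Control 9), 30.8 and 48.5 CPM (Control 10) as lowest, median and highest of Control libraries and 14.4, 17.04 and 38.3 CPM in Tyrphostin libraries. Tyrphostin 1, 4 and 5, at 18.1, 24.6 and 38.3 CPM, lay inside the Control range and the other 3 below it. Of the 6 treated libraries 5 lay below the Control median. Over all libraries the log2 fold change was -0.61 ± 0.23 (SE; 95% interval -1.10 to -0.13), with an unadjusted edgeR p of 0.0157 and an adjusted p of 0.102.

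Egfr was examined within each batch. In batch 1, where 2 of 9 members tested were called (Errfi1 and Egfr), the treated libraries held 18.1, 14.9 and 16.0 CPM, all under the lowest Control library of that batch at 23.6 CPM, and the fitted log2 change was -0.96 ± 0.23 (SE; edgeR adjusted p = 0.0156, where 2.94% of genes were called higher and 3.79% lower). In batch 2 they held 24.6, 38.3 and 14.4 CPM, the last below the Control span of 16.9 to 48.5 CPM and the others inside it, and the fitted log2 change was -0.26 ± 0.39 (SE; edgeR adjusted p = 0.893). The difference between these effects, 0.71 ± 0.44 (SE; 95% interval -0.21 to 1.62), was not called (unadjusted edgeR p = 0.124). The batch 1 call was lost without Tyrphostin 2 (edgeR adjusted p = 0.0711) or Tyrphostin 3 (edgeR adjusted p = 0.0560). The share of all genes with every treated library of batch 1 under its Control libraries was not counted.

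Tyrphostin 5, the treated library highest in Egfr, was also the library with the highest sum of theca and stroma markers. It had the lowest granulosa sum as well, 52510 CPM, and the highest sum of 6 immune markers, 860 CPM against at most 463 CPM elsewhere. Without Tyrphostin 5 the Egfr log2 fold change over both batches was -0.82 and was called (edgeR adjusted p = 0.0219), as it was without Control 9, the Control library lowest in Egfr, at -0.70 (edgeR adjusted p = 0.0473). Without Control 7, Control 8 and Tyrphostin 5 together, an omission chosen after seeing the data, it was -0.82 (edgeR adjusted p = 0.0204), and 2 of 9 members were called. Of the 10 theca and stroma markers tested, 9 had a negative fold change within batch 1, where Egfr was called, with a median of -0.89 and Col1a1 (-1.20 ± 0.32, SE) and Col1a2 (-1.28 ± 0.36, SE) called lower. Within batch 2, where Egfr was not called, all 10 were positive, with a median of 0.49 and none called. All 12 markers had counts in both groups, and their part in the Egfr values was not tested.

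The genes closest to Egfr in pattern over the 17 libraries were Ace, the angiotensin-converting enzyme, with r = 0.85, Col4a2 and Col4a1, the chains of basement membrane collagen, each with r = 0.83, and Nrp1, a co-receptor for semaphorins and VEGF, and Abca1, a cholesterol exporter, each with r = 0.82. On deviations from the means of the groups by batch r was 0.78, 0.85, 0.79, 0.74 and 0.70. In Tyrphostin 5, Col4a1 reached 619 CPM, Col4a2 200.5 CPM, Ace 21.6 CPM and Nrp1 28.3 CPM, each the highest of the 17 libraries. Among the 5, Abca1 was called lower in Tyrphostin libraries (-0.86 ± 0.24, SE; edgeR adjusted p = 0.0227) and the other 4 were not. The r values are a description of 17 libraries.

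Errfi1 was also lower relative to the receptor that it blocks, a ratio given here without a test. Control libraries held 16.3 (Control 10) to 102.5 (Control 9) Errfi1 counts for each Egfr count, with a median of 41.4, and Tyrphostin libraries held 7.25 to 20.9, with a median of 11.9. In 5 of 6 treated libraries this ratio was below every Control library, and the exception was Tyrphostin 2. The ratio does not depend on library scaling, but its denominator holds between 39 and 361 Egfr counts a library.

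Erbb2, the receptor that binds no ligand itself and pairs with the others (chromosome 11, 98412470 to 98437716, plus strand), held 6.83 (Control 11), 11.9 and 24.6 CPM (Control 6) as lowest, median and highest of Control libraries. Tyrphostin libraries held 8.09, 11.3 and 14.0 CPM, all inside the Control range. The log2 fold change was -0.18 ± 0.21 (SE; 95% interval -0.62 to 0.26; edgeR adjusted p = 0.672). Among Control libraries the fitted log2 difference of batch 2 against batch 1 was -0.77 ± 0.29 (SE; edgeR adjusted p = 0.102), which was not called. No test compared it with the change between treatments.

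Erbb3, whose kinase is weak and which signals through partners (chromosome 10, 128567523 to 128589652, minus strand), gave 0 to 4 counts in Control libraries, 20 in all, and 0 to 14 in Tyrphostin libraries, 23 in all. It had no count in Control 2, 7 and 11 and in Tyrphostin 3, which allows up to 0.585 to 0.787 CPM there if 3 counts are taken as the limit. With 14 counts Tyrphostin 4 held more than any other library. Fitted without the filter, its log2 fold change was 0.35 ± 0.77 (SE; edgeR adjusted p = 0.879), so no difference was detectable at this depth. Erbb4, the other neuregulin receptor and no member of the set, had 7 counts over all Control and 2 over all Tyrphostin libraries.

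Shc1 links phosphorylated receptors to Grb2 (chromosome 3, 89418443 to 89430027, plus strand) and was the most even member in Control libraries, where its SD was 15.6% of its mean. Its lowest, median and highest CPM were 25.3 (Control 1), 32.8 and 40.5 (Control 6) in Control libraries and 17.4 (Tyrphostin 2), 30.6 and 32.6 in Tyrphostin libraries. All 6 treated libraries lay below the Control median and 2 of them, Tyrphostin 2 and 6, below every Control library. The log2 fold change of -0.25 ± 0.16 (SE; 95% interval -0.58 to 0.08; edgeR adjusted p = 0.363) was not called.

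Grb2, the adaptor that carries Sos1 to the receptor (chromosome 11, 115644045 to 115708597, minus strand), was counted thinly, with 3 to 45 counts a library. Control libraries held 1.15 (Control 10), 3.10 and 8.25 CPM (Control 9) as lowest, median and highest, and Tyrphostin libraries 2.97, 3.85 and 7.02 CPM. Grb2 was the only member tested with a positive fold change over all libraries, 0.46 ± 0.34 (SE; 95% interval -0.25 to 1.17; edgeR adjusted p = 0.456). Within batch 1 it was 1.04 ± 0.38 (SE; edgeR adjusted p = 0.117), with 2 of 3 treated libraries above every Control library, and within batch 2 it was -0.22 ± 0.54 (SE). The difference between batches, -1.25 ± 0.66 (SE; unadjusted edgeR p = 0.0710), was not called.

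Gab1, a docking protein that extends the receptor complex (chromosome 8, 80764438 to 80880519, minus strand), held 2.61 (Control 9), 5.98 and 9.88 CPM (Control 5) as lowest, median and highest of Control libraries and 2.54, 5.68 and 8.37 CPM in treated ones. The log2 fold change fitted for it was -0.21 ± 0.30 (SE; edgeR adjusted p = 0.737), made of -0.62 ± 0.41 (SE) in batch 1 and 0.20 ± 0.38 (SE) in batch 2. Their difference of 0.82 ± 0.58 (SE) was not called (unadjusted edgeR p = 0.167). Of its exonic bases 5.23% overlap Gm31105 on the other strand.

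Sos1, the exchange factor that activates Ras (chromosome 17, 80393751 to 80480453, minus strand), ran from 2.36 CPM (Control 7) through 9.61 to 14.8 CPM (Control 4) in Control libraries. Tyrphostin libraries ran from 6.59 through 8.03 to 10.3 CPM, inside the Control range. The log2 fold change was -0.16 ± 0.25 (SE; 95% interval -0.67 to 0.36; edgeR adjusted p = 0.769).

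**Figure D3:**
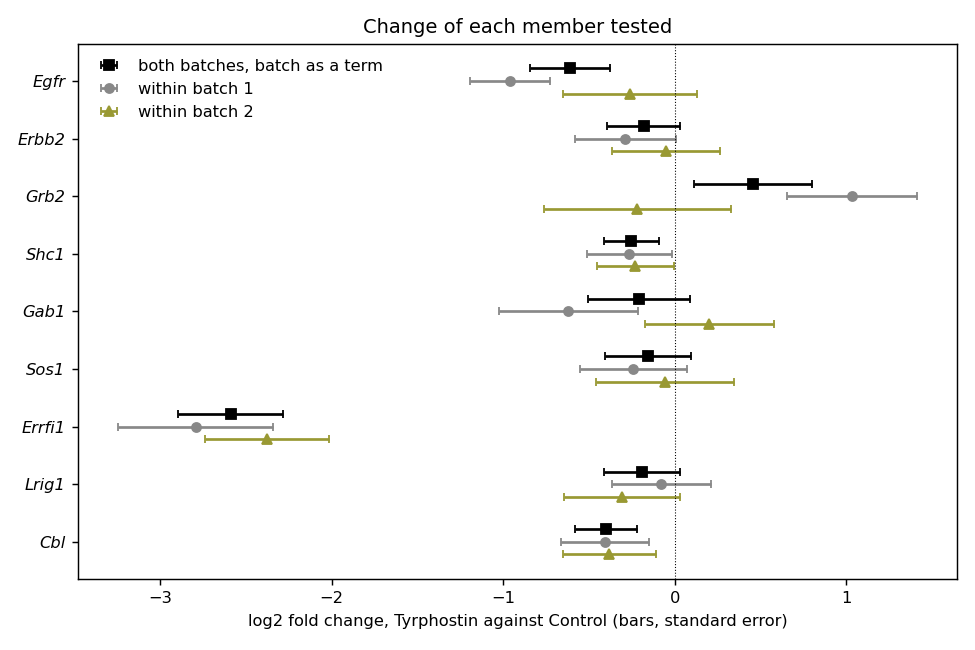
Log2 fold change of Tyrphostin against Control (x axis) for the 9 members tested, over both batches and within each batch, with bars of 1 standard error. Errfi1 lies between -2.79 and -2.38 in all 3 fits, and Egfr, Grb2 and Gab1 show the widest gaps between the batches.

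Per kilobase of its longest annotated transcript, Errfi1 was by far the most abundant member in Control libraries, at 478 CPM per kilobase ± 238 (SD, n = 11). Shc1 followed at 10.2 ± 1.59 CPM per kilobase, then Cbl at 3.38 ± 1.06, Egfr at 3.06 ± 0.914, Erbb2 at 2.66 ± 1.20 and Lrig1 at 2.66 ± 0.780 (SD, n = 11 each). Grb2, Gab1 and Sos1 lay at 1.29 ± 0.772, 1.27 ± 0.522 and 1.09 ± 0.418 CPM per kilobase, and Erbb3 at 0.0840 ± 0.0622 (SD, n = 11 each). Neighbours in this order differed beyond their SDs between Errfi1 and Shc1, between Shc1 and Cbl, and between Sos1 and Erbb3, and those 3 steps held in 11 of 11 libraries. From Cbl to Lrig1 and from Lrig1 to Sos1 the neighbours overlapped.

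The order was alike at the top in treated follicles. In Tyrphostin libraries Errfi1 stood at 78.2 CPM per kilobase ± 21.4 (SD, n = 6), still the highest member, above Shc1 at 8.54 ± 1.93 in 6 of 6 libraries. Egfr moved from the fourth to the sixth place, at 2.06 ± 0.904 CPM per kilobase (SD, n = 6), behind Lrig1 at 2.32 ± 0.878 and Erbb2 at 2.22 ± 0.488. These 3 overlapped within their SDs, and the order turned with coding length in place of transcript length: Egfr then stood in the fifth place in treated libraries, at 5.79 ± 2.54 CPM per kilobase, ahead of Lrig1 at 3.52 ± 1.33 and Erbb2 at 2.96 ± 0.649 (SD, n = 6). By coding length Egfr stood at 8.60 and Cbl at 14.0 CPM per kilobase in Control libraries, and 8 of 10 places in the Control order were as above.

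**Figure D4:**
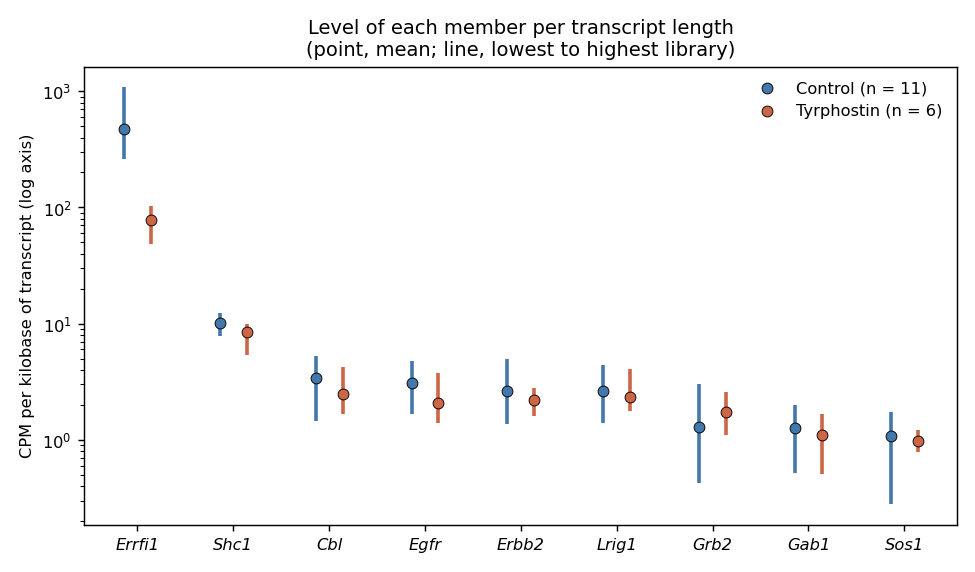
Level of each member other than Erbb3 per kilobase of transcript on a log axis. A point marks the mean and a line runs from the lowest to the highest library of the 11 Control and 6 Tyrphostin libraries. Errfi1 is highest in both groups and its 2 lines do not overlap, while all other members shown overlap between groups.

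Control libraries of batch 2 and batch 1 were compared to see how far members vary without the inhibitor. None of the 9 members tested was called, beside 11.0% of 9128 genes (5.50% higher and 5.50% lower in batch 2). Cbl came closest, from 46.5 CPM ± 8.61 (SD, n = 6) in batch 1 to 28.6 CPM ± 7.43 (SD, n = 5) in batch 2, which is -0.69 ± 0.22 on the log2 scale (SE; edgeR adjusted p = 0.0504). It passed the threshold under 6 of 8 other settings, and without Control 9 both Cbl and Erbb2 did (edgeR adjusted p = 0.0383 and 0.0371). Its log2 difference between treatments, from the same Control libraries and the treated ones, was the smaller -0.40, and no test compared these values. Errfi1 and Egfr differed between batches by -0.32 ± 0.34 and -0.04 ± 0.26 (SE), neither called.

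Other genes of the pathway close to the receptor were counted in a list of 48 adaptors, kinases, phosphatases and trafficking proteins, of which 40 were tested. Of these 40, 1 was lower and 2 were higher in treated libraries (4.35% of all genes were called higher and 6.25% lower), and the median log2 fold change was 0.03. Cblb, a ubiquitin ligase related to Cbl, held 34.4 (Control 7), 103 and 172.5 CPM (Control 3) as lowest, median and highest of Control and 21.6, 42.3 and 72.2 CPM of Tyrphostin libraries. All 6 treated libraries were below the Control median, and the log2 fold change was -1.10 ± 0.19 (SE; edgeR adjusted p = 0.00056). Cblb was lower in batch 2 than in batch 1 among Control libraries (-0.91 ± 0.23, SE; edgeR adjusted p = 0.0181). Within batch 1 Cblb was the only gene of the list called, lower (3.79% of all genes called lower). Within batch 2 only another gene, Pik3r1, was called, also lower (0.427% of all genes called lower).

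Grb14, an adaptor that binds and restrains the insulin receptor, held 8.21, 18.7 and 33.6 CPM as lowest, median and highest of Control and 17.8, 35.9 and 44.9 CPM of Tyrphostin libraries, and was higher by 0.81 ± 0.21 on the log2 scale (SE; edgeR adjusted p = 0.0130). Its call was lost without Tyrphostin 2 (edgeR adjusted p = 0.0541) and without the batch term (0.0665). Usp8, a deubiquitinase that acts on receptors in endosomes, rose by 0.50 ± 0.16 (SE; edgeR adjusted p = 0.0436) on the log2 scale. That call was lost in 12 of the 17 omissions of a library, those of Control 2, 3, 4, 6, 8, 9 and 11 and Tyrphostin 1, 3, 4, 5 and 6, with an edgeR adjusted p of up to 0.126. It was also lost with Control libraries summed by set (edgeR adjusted p = 0.0921), without the batch term (0.271) and without a filter on low counts (0.0747). Among Control libraries Usp8 was higher in batch 2 (1.04 ± 0.21, SE; edgeR adjusted p = 0.00428). The list's count of calls was 6 without Control 7, 7 by DESeq2 and 5 by limma-voom.

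Ligands of the family were counted in the same way. Of 11 listed 7 were tested, and 4 of the 7 were called lower and none higher (6.25% and 4.35% of all genes), with a median log2 fold change of -1.14. The other 3 were not called, and of the 7 fold changes 5 were negative and 2 positive. Within batch 1 only Nrg1 was called, lower, and within batch 2 no ligand was (3.79% and 0.427% of all genes called lower). Nrg1, a neuregulin that binds Erbb3 and Erbb4, held 4.06 (Control 4), 6.52 and 14.0 CPM (Control 8) as lowest, median and highest of Control and 1.37, 1.94 and 5.90 CPM of Tyrphostin libraries. In each batch all 3 treated libraries lay below every Control library of that batch, a separation whose share over all genes was not counted. Over both batches the ranges overlapped, and the log2 fold change was -1.57 ± 0.29 (SE; edgeR adjusted p = 0.000835). Epgn, epigen, a ligand of Egfr, held 11.6, 40.6 and 96.9 CPM in Control and 6.34, 16.0 and 33.4 CPM in treated ones, and its fitted log2 change was -1.41 ± 0.35 (SE; edgeR adjusted p = 0.0120). The Epgn call was lost without a filter on low counts (edgeR adjusted p = 0.0740) and without the batch term (0.0900). The other 2 called were Btc (-1.14 ± 0.23, SE; edgeR adjusted p = 0.00173), the ligand with the most counts, whose call was lost without the batch term (edgeR adjusted p = 0.0659), and Areg (-1.28 ± 0.40, SE; edgeR adjusted p = 0.0493). Areg was already lower in batch 2 than in batch 1 among Control libraries (-2.45 ± 0.43, SE; edgeR adjusted p = 0.00252), and its call between treatments was lost in 13 of the 17 omissions, all but those of Control 5, 6 or 10 or Tyrphostin 4. It was lost too in 6 of 12 other settings, among them Control libraries summed by set (edgeR adjusted p = 0.119).

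**Figure D5:**
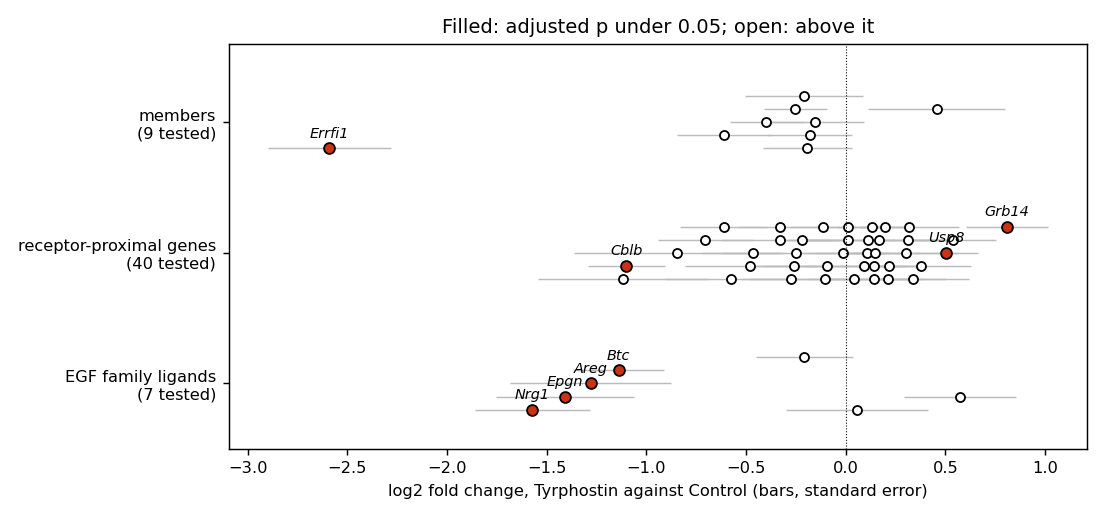
Log2 fold change of Tyrphostin against Control (x axis, bars of 1 standard error) for the members, other receptor-proximal genes and EGF family ligands that were tested. Filled points have an adjusted p under 0.05: 1 of 9 members, 3 of 40 receptor-proximal genes and 4 of 7 ligands.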

How the data were processed

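Deposited values are raw counts for each gene symbol in 17 libraries, 25198 genes in all, of which 3576 had no count in any library. Libraries were made by Smart-Seq2, per the labels' protocols, so there are no molecular identifiers and copies from PCR are counted. STAR, HTSeq and GRCm38 are named per the submitters' processing notes. Their settings, the annotation and the use of strand are not given in the sources used here. Reads shared by related or overlapping genes may have been dropped.

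The counts were fitted in R 4.3.3 by edgeR 4.0.16 (filterByExpr on treatment, TMM, robust quasi-likelihood F test, Benjamini-Hochberg adjustment over all genes tested, threshold 0.05) with batch as a term, within each batch, as an interaction, and between batches among Control libraries. The SE is the log2 fold change over the square root of F. CPM use TMM-scaled totals. Limits set at 3 counts cover counting error only. Annotation and lengths come from GENCODE M21 on GRCm38, the build of the notes, and promoters from RefSeq. Alternatives were other scalings, filters and tools (DESeq2 1.42.0, limma 3.58.1), other covariates, and omission of each library. The code was tested on simulated counts. The members, lists and tests were chosen with earlier results of these data known. All members were named, and from each other list up to 4 called genes of lowest p. The 5 genes most like Errfi1 and Egfr were taken by Pearson r of log2(CPM + 0.5).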

Additional observations from a re-analysis of the deposited data

Results flagged for a closer look

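CPM of the members tested and total counts were searched for a lone extreme value within Control batch 1, Control batch 2 and all Tyrphostin libraries. These groups hold 5 or 6 libraries each. Across the 30 searches 2 such values were found, where chance gives about 1.5. Lrig1 stood at 20.2 CPM in Tyrphostin 2, with the other Tyrphostin libraries between 8.78 and 10.97 CPM. Without that library the Lrig1 log2 fold change went from -0.19 to -0.43 and was still not called (edgeR adjusted p = 0.284). The total of Control 6, 1820545 counts, was far below the 3807300 to 4834875 counts of the other Control libraries of batch 1, so members with few counts are least certain there: it held 3 counts of Grb2 and 9 of Sos1.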

How the results depend on the processing

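The Errfi1 decrease kept its direction and its call in 12 of 12 alternatives and 17 of 17 omissions of a library, with log2 fold changes of -2.67 to -2.41. Members called were 1 in all settings other than omission of Control 9 or Tyrphostin 5, and of the 3 libraries with most theca and stroma signal, which gave 2 (Egfr added), a range of 1 to 2. Genes called over all were 619 without the batch term and 708 to 1314 when a library was left out. Total counts gave 64.4% of calls as higher against 41.1% by TMM, and moved the median of all genes by 0.145.

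Deviations of same-numbered Control and Tyrphostin libraries had r of 0.03 to 0.33. Number 1 had the highest, 0.33, and the others had at most 0.11. No r was computed for libraries of unlike number, so these values do not tell whether same-numbered libraries are pairs. The fit with a replicate block used numbers 1 to 6 and left out Control 7 to 11. Numbers 4 to 6 are batch 1 in Control and batch 2 in Tyrphostin libraries, so its treatment effect rests on numbers 1 to 3 of batch 1. It called 624 genes, 456 of them also called without it, kept Errfi1 as the only member called, and turned Erbb2 to 0.16. Grb14 and Usp8 were not called in it (edgeR adjusted p = 0.138 and 0.463).

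Within batch 1, all genes called ran from 394 to 687 and members called from 1 to 2 when a library was left out. Lrig1 turned to 0.080 with total counts, 0.0017 without a filter, and ran from -0.55 to 0.14 over omissions. Within batch 2, genes called were 303 by DESeq2, 222 without a filter and 11 to 221 over omissions, and members called 0 to 1. There Erbb2 turned to 0.069 with total counts and 0.029 by limma-voom (-0.16 to 0.16 over omissions), Sos1 to 0.047 and 0.068 (-0.28 to 0.042), and Grb2 to 0.25 by limma-voom (-0.49 to 0.12). Over the same omissions Gab1 ran from -0.014 to 0.45 and Egfr from -0.66 to 0.036. The difference between batches had 79 genes called without a filter. Between batches among Control libraries, 1 member (Cbl) was called with RLE or upper-quartile scaling, DESeq2, limma-voom, at least 10 counts or the 20 most abundant genes left out. Over omissions 0 to 2 members and 660 to 1063 genes were called, and Errfi1 ran from -0.45 to 0.022. With total counts 6 of 10 members kept their place in the order per kilobase. The cause of these shifts was not tested. Depth limits Grb2, Gab1 and Erbb3 most. A minimum of 10 counts in every library left Grb2, Gab1 and Sos1 untested. Receptor-proximal genes called were 7 by DESeq2, 5 by limma-voom and 1 without the batch term, and ligands 2 without a filter and 1 without the batch term.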
